A study of Mus musculus with 187 samples.

Results

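The genes that drive cell division and license DNA for replication were followed in single mouse embryos at the 2-cell and 4-cell stages. They were chosen by symbol: cyclins A, B, D and E, the cyclin-dependent kinases Cdk1, Cdk2, Cdk4 and Cdk6, selected Cdc genes, the Bub, Mad and Ttk checkpoint genes, the Aurora and Polo kinases, the Cenp genes, the Anapc subunits, and the Mcm and Orc subunits. The rule found 90 genes of 23770 named in the tables. Of these, 84 are listed in each 2-cell table and 89 in the 4-cell table, where Anapc13, Ccna1, Ccnd2, Cdk6, Cenpb and Plk1s1 are listed in addition and Cenpu is not. By role they comprise 19 centromere genes, 16 licensing genes, 15 genes of the anaphase-promoting complex and its activator Cdc20, 11 cyclins, 9 Aurora or Polo kinase genes, 8 spindle checkpoint genes, 5 Cdc25 or Cdc14 phosphatases, 4 Cdks and 3 genes of origin firing. A few carry the symbol of a division gene without being one: Ccnb1ip1 is a meiotic crossover factor, and Aurkaip1 is a protein of the mitochondrial ribosome. Mcm3ap is best known for its part in mRNA export, and Plk1s1 is a centrosome protein. Mcm3ap is counted by its symbol with the licensing genes here, as are the recombination helicase Mcm8 and its partner Mcm9.

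Replication origins are licensed when the origin recognition complex, with Cdc6, loads the MCM helicase onto DNA. Cdk and Cdc7 kinases then fire the origins with Cdc45 and Mcm10, and cyclin B with Cdk1 drives entry into mitosis. Kinetochores form on centromeres, the Mad and Bub proteins hold the anaphase-promoting complex back until chromosomes are attached, and its activator Cdc20 then targets cyclin B for destruction. The first divisions of a mouse embryo run largely on transcripts and proteins laid down in the oocyte, with embryonic transcription taking over around the 2-cell stage.

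The embryos were of the FVB strain, from in vitro fertilisation of oocytes of control-diet females with sperm of control-diet males. Zygotes received RNA 2 h after fertilisation, and the labels give collection at 32 h for the 2-cell stage. Of the 2-cell embryos, 46 carried small RNA from sperm of males fed low protein (0.5 ng/µl) and 42 that of control males. A further 26 had received tRF-GlyGCC, a synthetic fragment of glycine tRNA with modified bases, 6 tRF-GluCTC, a fragment of glutamate tRNA headed as unmodified, and 11 mRNA of H3.3-GFP. At the 4-cell stage, 27 embryos had received an antisense oligonucleotide to tRF-GlyGCC and 28 H3.3-GFP mRNA. One deposited table heads the antisense group as an unmodified tRF, so the identity of that RNA is uncertain. Embryos with GFP signal were collected, so the other groups may carry GFP mRNA as well. The labels tie no embryo to a male, a litter or a preparation of sperm RNA, and p-values therefore compare embryos and not animals. Titles end in a code that embryos share, which was used as batch: A to F for sperm RNA, G and H for the tRFs and J to R, without O, at the 4-cell stage, with batch R holding GFP embryos alone.

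Median depth per 2-cell group lay between 1.81 and 2.29 M counts, with single embryos between 0.644 and 4.56 M, and for the 4-cell embryos, given as FPKM, depth is unknown. The members took a median of 1.68% of an embryo's counts with low protein sperm RNA and 1.62% with control sperm RNA. Their share was 1.58% with tRF-GlyGCC, 1.49% with tRF-GluCTC and 1.43% with GFP, within ranges that overlapped (0.962 to 2.02%, 1.32 to 1.67% and 0.934 to 1.63%). All 10 oocyte and early embryo markers and all 8 markers of the 2-cell stage were listed in every table. None of 12 cumulus cell markers or 8 sperm markers is listed in the 2-cell tables, and at the 4-cell stage the summed cumulus markers reached at most 3.47 FPKM and the sperm markers at most 17.2 FPKM. The 2-cell markers summed to 50.6, 183 and 1333 FPKM (lowest, median, highest) in the antisense embryos, against 19.5, 80.1 and 826 FPKM in the GFP embryos of the 4-cell stage. In bulk RNA of a whole embryo, a change in transcript per cell and a change in cell number or stage cannot be told apart.

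Level per length was first compared between members in the 28 GFP embryos of the 4-cell stage. Of the 89 members listed there, 20 averaged 100 FPKM or more, 47 between 10 and 100, 17 between 1 and 10 and 5 under 1 FPKM. Their median was 30.9 FPKM, beside 10.8 FPKM for the 10649 features at 1 FPKM or more. The highest member was Ccnb1, the cyclin of mitotic entry, at 855 ± 223 FPKM (SD, n = 28). It was followed by Mad2l1bp, which silences the spindle checkpoint, at 757 ± 328 FPKM, Cdc20 at 573 ± 176 FPKM, Ccna2 at 367 ± 95.5 FPKM and Ccne1 at 260 ± 84.3 FPKM. Mad2l1bp differed from both neighbours by less than its SD, whereas the gaps between Cdc20, Ccna2 and Ccne1 were larger than their SDs.

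In the cyclin families 1 paralog led. Ccnb1 exceeded Ccnb2 (50.6 ± 18.9 FPKM) in 28 of 28 embryos, by 4.10 ± 0.70 (SD) on the log2(FPKM + 1) scale. Ccne1 exceeded Ccne2 (1.67 ± 1.19 FPKM), both partners of Cdk2 at the start of S phase, by 6.62 ± 0.90 in 28 of 28. Among the D cyclins, which pair with Cdk4 and Cdk6, Ccnd3 at 106 ± 74.9 FPKM exceeded Ccnd1 at 1.40 ± 1.17 FPKM in 28 of 28 embryos, and Ccnd2 reached at most 1.07 FPKM. Ccna1, the germ line cyclin A, is listed at 0 in every 4-cell embryo. The D cyclins' partner Cdk4 averaged 154 ± 58.7 FPKM, against 0.914 ± 0.973 FPKM for Cdk6. These 4 pairs reached the smallest p that 100000 sign flips can give, 1e-05 (two-sided permutation test, 1.36e-05 after adjustment over 15 pairs). Reads of Ccnd3 and its opposite-strand neighbour Bysl, and of Cdk4 and Tspan31, cannot be told apart where their exons overlap, since the library kit does not mark strand. The same holds for Ccna2 with Exosc9, Cdc20 with Elovl1, Cdc45 with Ufd1, Cdc25b with Spef1, Ccne2 with Ints8, Ccnd1 with LTO1, Cenpp with Ippk, Cdc14a with Gm29151, Mad1l1 with Gm16121, Orc4 with Acvr2a, Anapc15 with Tomt, and Mcm7 with Cops6 and Ap4m1, and Orc5 overlaps Gm15421 on its own strand.

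The mitotic kinases also differed in level. Aurka, which builds spindle poles, averaged 233 ± 78.6 FPKM and Aurkc, the Aurora kinase of germ cells, 172 ± 70.2 FPKM, a gap smaller than their SDs. Both exceeded Aurkb (84 ± 23.8 FPKM), the kinase of the chromosomal passenger complex, in 28 and 27 of 28 embryos. Plk1, active from mitotic entry to cytokinesis, averaged 149 ± 53.8 FPKM and the centriole kinase Plk4 10.002 ± 4.48 FPKM, a log2 difference of 3.79 ± 0.77 in 28 of 28. The stress-related kinase Plk2 was the lowest kinase at 4.30 ± 10.9 FPKM, with a median of 2.08 and 1 embryo at 59.3 FPKM.

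Smaller differences separated the remaining pairs. Cdk1 at 160 ± 75.8 FPKM exceeded Cdk2 at 101.3 ± 38.1 FPKM in 23 of 28 embryos (log2 difference 0.66 ± 0.93, permutation p = 3e-05). Cdc25a, the phosphatase of S phase entry, was lower than Cdc25c in 26 of 28 embryos, at 24.996 ± 8.40 against 43.1 ± 17.1 FPKM, and Cdc14a was the lowest phosphatase at 1.04 ± 1.06 FPKM. Bub1 exceeded Bub1b by 0.39 ± 0.75 in 21 of 28 embryos (permutation p = 0.01), the smallest of the 15 differences, and lost the call with a pseudocount of 0.1 (adjusted permutation p = 0.0507). Orc1, which binds origins, was lower than Orc2 in 22 of 28 embryos, at 20.7 ± 9.10 against 33.1 ± 13.5 FPKM. The replicative helicase subunit Mcm2 averaged 74.8 ± 26.8 FPKM and Mcm8, a recombination helicase, 4.77 ± 2.74 FPKM, and Mcm2 was higher in 28 of 28. Among the genes counted as licensing by symbol, Mcm6 was the highest at 110 ± 39.5 FPKM and Mcm3ap the lowest at 2.85 ± 1.32 FPKM. Across the centromere genes, levels ran between 162 ± 62 FPKM for Cenpa, the centromeric histone, and 0.287 ± 0.426 FPKM for Cenpb. Cdc20 stood far above Anapc1, the lowest subunit of the complex it activates, at 10.2 ± 4.04 FPKM, and above the alternative activator Fzr1 at 17.7 ± 6.85 FPKM. Firing genes ran between 155 ± 57.3 FPKM for Cdc45 and 7.17 ± 3.51 FPKM for the kinase Cdc7.

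**Figure D1:**
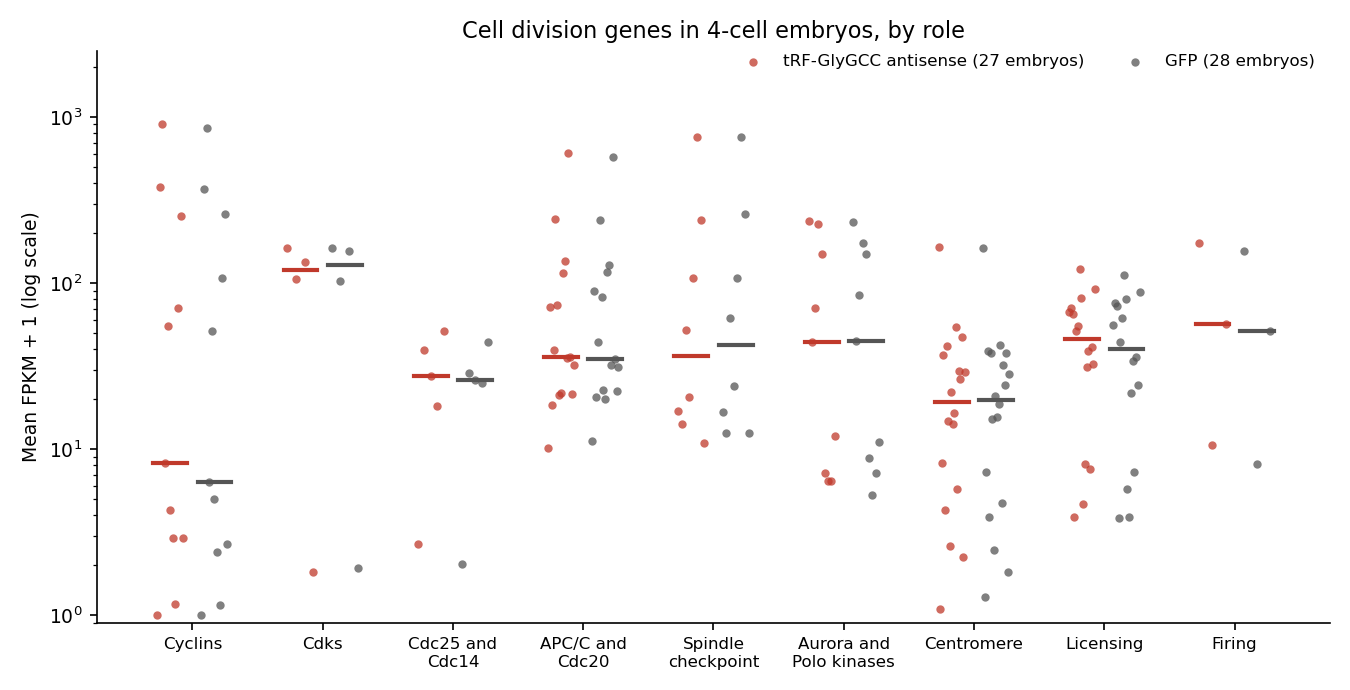
Mean level of each member in 4-cell embryos on a log axis (FPKM + 1), by role, for 27 antisense embryos (left of each pair) and 28 GFP embryos (right). Points are members and bars are medians of a role; Ccnb1 is the highest cyclin at 855 FPKM in GFP embryos and Ccna1 lies at 0.

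At the 2-cell stage the same genes led. Scaled by mean RefSeq transcript length, Mad2l1bp averaged 735 ± 163 CPM per kb (CPM scales an embryo's counts to a common total; SD, n = 11 GFP embryos), Ccnb1 652 ± 256, Ccna2 352 ± 93.1, Ccne1 321 ± 60.6 and Cdc20 254 ± 131. These 5 were also the 5 highest at the 4-cell stage. Because the stages were deposited in different units, each member was ranked among 8414 genes of both stages within every GFP embryo. The median rank of the 83 members measured at both stages was at percentile 69.3 in 4-cell embryos and 67.3 in 2-cell embryos.

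Ranks of 5 of 83 members (6.02%) did not overlap between the 28 embryos of the 4-cell and the 11 of the 2-cell stage, beside 13.2% of all genes, given as a description with no test. Mad2l2, a partner of DNA repair polymerases that shares the Mad2 fold, lay at percentiles 89.8, 95.2 and 97.1 (lowest, median, highest) in 4-cell embryos and at 62.8, 77.1 and 87.8 in 2-cell embryos. Cenpp, a subunit of the constitutive centromere network, lay at 53.6, 68.0 and 80.8 in 4-cell embryos and at 10.5, 43.4 and 49 in 2-cell embryos. These were the 2 members whose rank was higher in every 4-cell embryo. Plk4 lay at 19.8, 46 and 56.9 in 4-cell embryos and at 72.9, 81.3 and 96.3 in 2-cell embryos. Ccne2 lay at 3.3, 16.1 and 30.6 in 4-cell embryos and at 32.9, 61.5 and 85.9 in 2-cell embryos. Cenpj, a centriole assembly protein, lay at 3.0, 16.3 and 27.4 in 4-cell embryos and at 28.8, 41.3 and 62.5 in 2-cell embryos. For these 3 members every 4-cell embryo ranked below every 2-cell embryo.

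Other members shifted far in their median while single embryos overlapped. Anapc10, a substrate-binding subunit of the anaphase-promoting complex, had a median percentile of 85.8 in 4-cell embryos and 39 in 2-cell embryos. Cdk4 had 91.7 in 4-cell embryos and 46.4 in 2-cell embryos. In the other direction Cenpv had 3.3 in 4-cell embryos and 53.6 in 2-cell embryos, Cenpf 24.5 in 4-cell and 64.4 in 2-cell embryos, and Ccnd1 13.9 in 4-cell and 51.9 in 2-cell embryos. By role, 12 of 14 genes of the anaphase-promoting complex ranked higher at the 4-cell stage. Their median shift was 15.5 percentiles, beside 0.3 over all genes. Cdc27 (-19.2) and Anapc5 (-5.3) ranked lower, and none of the 14 was among the members without overlap. Of the licensing genes, 7 of 16 ranked higher, with a median shift of -0.7. The stages were different experiments with different units and gene sets, so stage and experiment cannot be told apart.

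**Figure D2:**
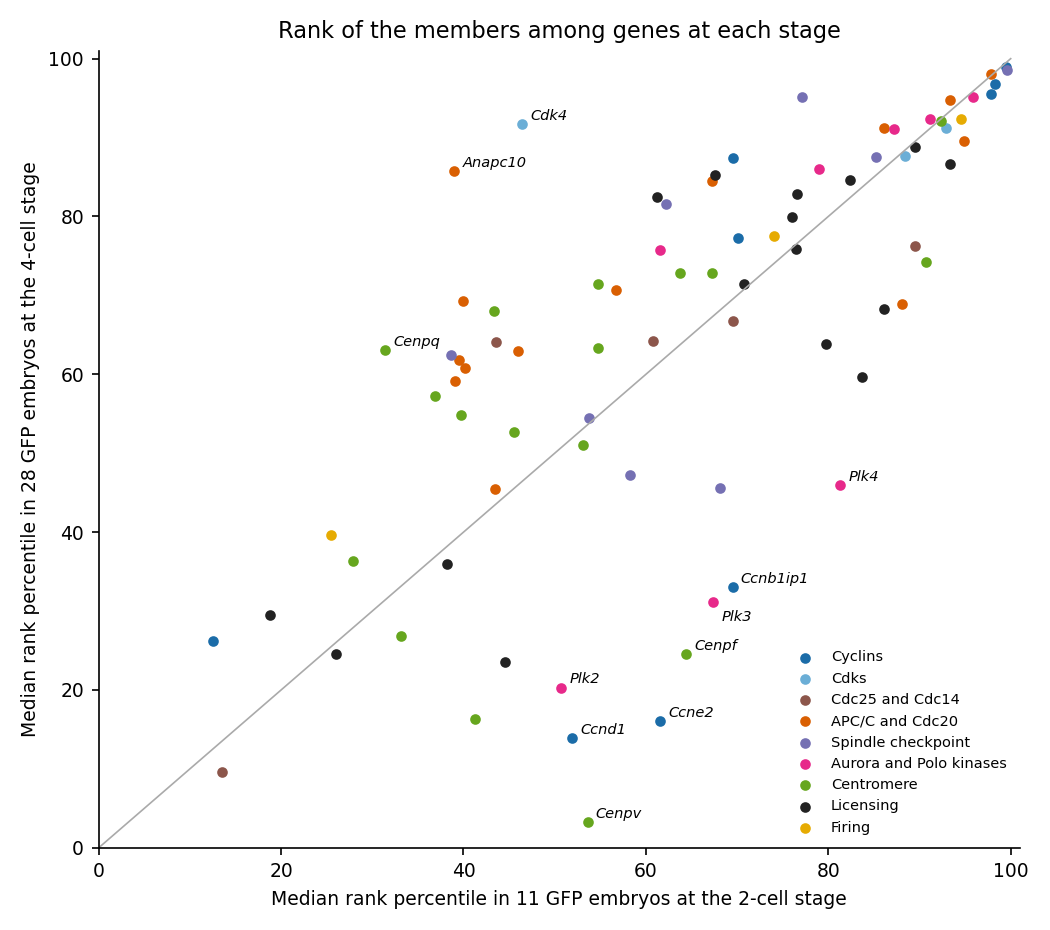
Median rank percentile of each member among 8414 genes in 28 GFP embryos of the 4-cell stage (vertical axis) against 11 GFP embryos of the 2-cell stage (horizontal axis), coloured by role. Points above the line, such as Cdk4 and Anapc10, ranked higher at the 4-cell stage, and points below it, such as Plk4 and Cenpv, ranked lower.

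Small RNA of low protein sperm was compared with that of control sperm to ask whether a father's diet reaches the embryo through sperm RNA. No member passed the test by edgeR (0 of 84, adjusted p under 0.05), where 0.0917% of all genes tested did (8 of 8721). At an unadjusted p under 0.05 there were 4 of 84 members (4.76%), close to the 3.99% of all genes. Of these, 3 had a higher estimate, beside 2.47% of genes, and 1 a lower one, beside 1.53%. The members' median log2 fold change was 0.06, beside 0.02 over all genes, and 55 of 84 (65.5%) had a higher estimate, beside 53.9% of all genes. Centromere genes had the largest role median, 0.23, with 14 of 18 estimates higher, and the phosphatases the lowest, -0.28, with 2 of 5 higher. By the means within each batch, 4 of the 18 centromere genes were higher in all batches and 14 in only some. Members measured in one embryo share its library, so such counts of estimates carry no test. DESeq2 called 0 members and 18 genes. The 8 genes became 14 without batch A, 15 without batch C, and 0 without batch E, without batch F or without control embryos 22 and 26, and the 4 members became 7 without batch E, beside 5.73% of all genes, and 2 without batch F, beside 2.36%.

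Mad2l1, the checkpoint protein that sequesters Cdc20, ranged over 87.8, 232 and 846 CPM (lowest, median, highest) with low protein sperm RNA and 54.1, 186 and 336 CPM with control sperm RNA. The groups overlapped, with 29 of 46 low protein embryos above the control median and values above 336 CPM with low protein sperm RNA only. Its log2 fold change was 0.39 ± 0.13 (SE), with p = 0.00256 and adjusted p = 0.676 (edgeR), and its mean log2 difference was above 0 in 6 of 6 batches, between 0.03 and 0.67. Cenpf, a large kinetochore protein, ranged over 52.9, 234 and 720 CPM with low protein and 35.3, 169 and 630 CPM with control sperm RNA. Cenpj ranged over 8.28, 43.7 and 163 CPM with low protein and 0, 32.0 and 90.8 CPM with control sperm RNA. Both were also higher in 6 of 6 batches, with log2 fold changes of 0.42 ± 0.18 (Cenpf, adjusted p = 1.0 by edgeR) and 0.54 ± 0.23 (Cenpj, adjusted p = 1.0), and their groups overlapped over most of the range.

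The 3 lower estimates of smallest p included those of both Cdc14 phosphatases, which in yeast reverse Cdk phosphorylation at mitotic exit. Cdc14b ranged over 54.5, 156 and 248.7 CPM with low protein and 76.8, 181 and 280 CPM with control sperm RNA (log2 fold change -0.28 ± 0.10, p = 0.00746, adjusted p = 0.891 by edgeR). Only 11 of 46 low protein embryos lay above the control median, but the difference was above 0 in 2 of 6 batches. Cdc14a ranged over 0.526, 19.9 and 118.7 CPM with low protein and 1.84, 28 and 108.99 CPM with control sperm RNA (-0.39 ± 0.25, adjusted p = 1.0 by edgeR). Its estimate was below 0 in all 6 batches. Mcm9, the partner of Mcm8, ranged over 1.34, 36.6 and 139 CPM with low protein and 9.17, 51.3 and 123 CPM with control sperm RNA (-0.33 ± 0.20, adjusted p = 1.0 by edgeR), and its reads cannot be told apart from those of the overlapping Asf1a.

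Injected tRF-GlyGCC was compared with GFP to ask what this fragment does to the 2-cell embryo. No member passed the test by edgeR (0 of 84), and no gene of the table did (0% of 8804). At an unadjusted p under 0.05 there were 8 of 84 members (9.52%), beside 3.23% of all genes. Of these, 6 had a higher estimate, beside 1.99% of genes, and 2 a lower one, beside 1.24%. The members' median log2 fold change was 0.20, beside 0.04 over all genes, and 59 of 84 (70.2%) had a higher estimate, beside 55.0% of all genes. All 18 genes named for the centromere, Cenpj included, had a higher estimate in the fit, with a median of 0.39. By the mean of log2(CPM + 1) within each batch, 10 of them were higher in both batches, 5 in 1 batch and 3 (Cenpi, Cenpq and Cenpu) in neither. Of the licensing genes, 7 of 16 had a higher estimate, with a median of -0.03. DESeq2 called 0 members and 0 genes, with 14 members (16.7%) at an unadjusted p under 0.05, beside 4.65% of all genes. Without batch G edgeR left 1 member (1.19%), beside 1.17% of all genes, and without batch H 7 (8.33%), beside 2.23%. The GFP embryos are the same as in the comparison of tRF-GluCTC that follows.

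Mad2l1 again had the smallest p. It ranged over 73.04, 196 and 778 CPM with tRF-GlyGCC and 72.98, 136 and 232 CPM with GFP (log2 fold change 0.93 ± 0.30, p = 0.00316, adjusted p = 1.0 by edgeR). Of the tRF-GlyGCC embryos, 24 of 26 lay above the GFP median, and the lowest values of both groups coincided. Cdc14a ranged over 2.999, 28.95 and 141 CPM with tRF-GlyGCC and 4.62, 14.9 and 26.4 CPM with GFP (1.31 ± 0.43, p = 0.00345, adjusted p = 1.0 by edgeR). Orc6, the smallest origin recognition subunit, ranged over 87.5, 248 and 441 CPM with tRF-GlyGCC and 54.5, 164 and 241 CPM with GFP (0.56 ± 0.21, p = 0.0125, adjusted p = 1.0 by edgeR). For all 3 the tRF-GlyGCC embryos reached above the GFP embryos at the top and overlapped them below, and the difference was above 0 in both batches. Orc6 shares exon sequence with Vps35 on the opposite strand.

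The lower estimates of smallest p were those of the checkpoint protein Mad1l1, which recruits Mad2 to kinetochores, and of the helicase subunits Mcm5 and Mcm4, whereas those of Mcm6 (0.12) and Mcm7 (0.14) were above 0. Mad1l1 ranged over 0, 12.1 and 29.99 CPM with tRF-GlyGCC and 8.78, 27.5 and 53.2 CPM with GFP (-1.21 ± 0.53, p = 0.0264, adjusted p = 1.0 by edgeR). Only 1 of 26 tRF-GlyGCC embryos lay above the GFP median, and 3 had no count. Mcm5 ranged over 0, 43.2 and 150 CPM with tRF-GlyGCC and 27.4, 84.5 and 175 CPM with GFP (-0.80 ± 0.36, p = 0.0311, adjusted p = 1.0 by edgeR), and 3 of 26 lay above the GFP median. Mcm4 ranged over 24.3, 98.8 and 280 CPM with tRF-GlyGCC and 61.2, 147 and 255 CPM with GFP (-0.47 ± 0.27, p = 0.0805, adjusted p = 1.0 by edgeR). The remaining members at an unadjusted p under 0.05 had higher estimates: Cenpw at 0.66 ± 0.27, Cdk4 at 0.89 ± 0.37 and Cenpa at 0.71 ± 0.33.

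**Figure D3:**
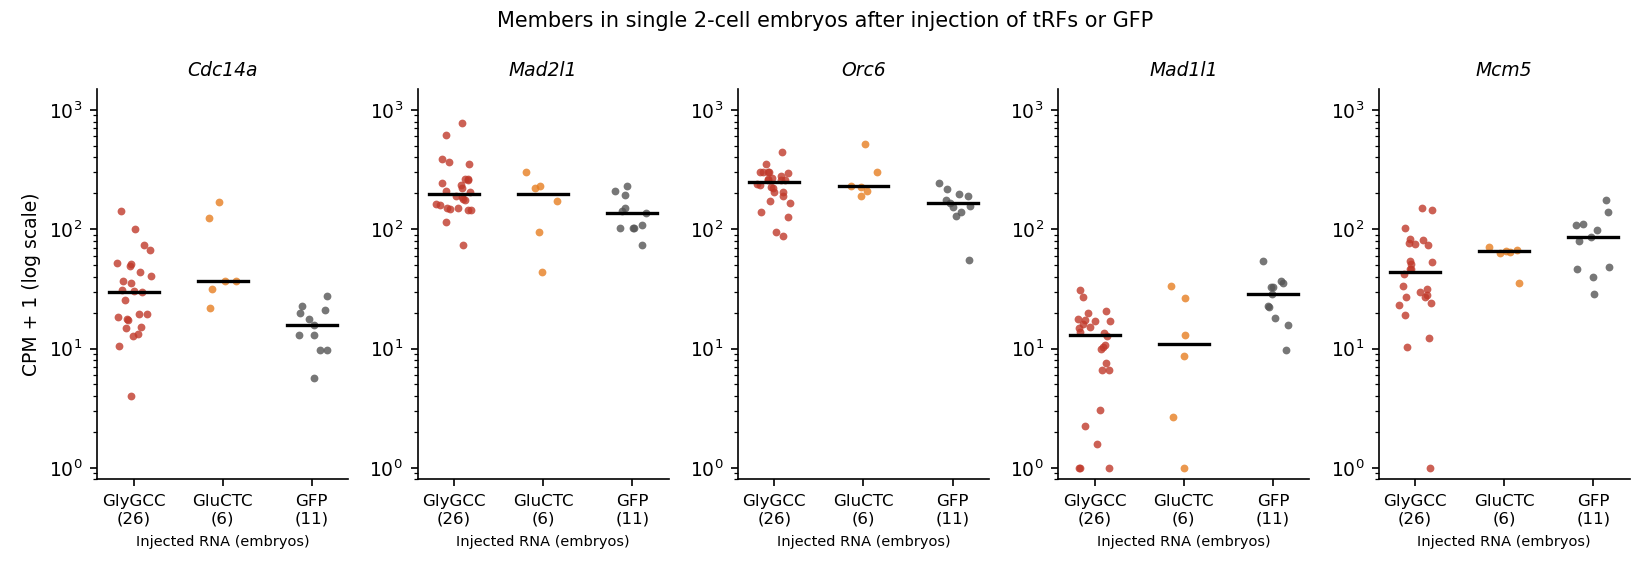
Level of 5 members (CPM + 1, log axis) in every 2-cell embryo injected with tRF-GlyGCC (26), tRF-GluCTC (6) or GFP (11), with bars at medians. Cdc14a, Mad2l1 and Orc6 had higher medians with tRF-GlyGCC than with GFP, Mad1l1 and Mcm5 lower medians, the groups overlapped, and no difference passed the adjusted test.

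With tRF-GluCTC no member passed either (0 of 84, beside 0% of 8804 genes by edgeR), and 4 of 84 members (4.76%) had an unadjusted p under 0.05, beside 3.46% of all genes, each of them with a higher estimate, beside 1.77% of genes. The members' median log2 fold change was 0.08, beside -0.01 over all genes. A higher estimate was found for 51 of 84 members (60.7%) and 8 of 9 cyclins, beside 49.6% of all genes. DESeq2 called 0 members and 1 gene. All 6 tRF-GluCTC embryos come from batch H. Within that batch the mean log2 differences of Ccnd1 (-0.16), Ccnd3 (-0.36) and Ccne2 (-0.25) were below 0, although their estimates from the fit were above it. Those of Ccnb1, Ccnb2, Ccnb3, Ccnb1ip1 and Ccne1 were above 0 in both. Cdc14a had the third smallest p of the whole table: it ranged over 20.99, 35.98 and 169 CPM with tRF-GluCTC and 4.62, 14.9 and 26.4 CPM with GFP (2.08 ± 0.57, p = 0.000701, adjusted p = 1.0 by edgeR). All 6 tRF-GluCTC embryos lay above the GFP median, and the lowest of them still fell within the GFP range. Orc6 ranged over 190, 227 and 514 CPM with tRF-GluCTC and 54.5, 164 and 241 CPM with GFP (0.81 ± 0.31, p = 0.011, adjusted p = 1.0 by edgeR). Cenpw, part of the CENP-T complex, ranged over 38.7, 60.7 and 92.4 CPM with tRF-GluCTC and 5.54, 23.6 and 62.7 CPM with GFP (0.89 ± 0.37, p = 0.0207, adjusted p = 1.0 by edgeR). In both genes 6 of 6 tRF-GluCTC embryos exceeded the GFP median while the ranges overlapped. The GFP medians and ranges pool batches G and H. Within batch H alone the mean log2 differences were 1.45 for Cdc14a, 0.83 for Orc6 and 0.60 for Cenpw.

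Among the lower estimates with tRF-GluCTC, none had an unadjusted p under 0.05. Cenpi, a constitutive centromere subunit, ranged over 1.59, 27.3 and 40.1 CPM with tRF-GluCTC and 13.4, 38.8 and 114 CPM with GFP (-1.21 ± 0.61, p = 0.0513, adjusted p = 1.0 by edgeR). Cdc25b, a phosphatase that activates Cdk1, ranged over 11.6, 51.7 and 66.9 CPM with tRF-GluCTC and 25.3, 75.1 and 218 CPM with GFP (-0.90 ± 0.53, adjusted p = 1.0 by edgeR). The highest tRF-GluCTC embryo lay below the GFP median. Bub1b, a component of the mitotic checkpoint complex, had -0.66 ± 0.47, with 2 of 6 embryos above the GFP median. Within batch H alone the mean log2 differences were -1.69 for Cenpi, -0.99 for Cdc25b and -0.43 for Bub1b.

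Set against each other, the 2 tRFs separated no member by edgeR (0 of 84, beside 0% of 8804 genes). At an unadjusted p under 0.05 there was 1 of 84 members (1.19%), beside 2.2% of all genes and, for higher estimates alone, 1.5%. That member was Cenpi, which ranged over 1.63, 44.8 and 160 CPM with tRF-GlyGCC and 1.59, 27.3 and 40.1 CPM with tRF-GluCTC (1.31 ± 0.56, p = 0.0235, adjusted p = 1.0 by edgeR). By p, the next higher estimates were 1.03 ± 0.61 for Aurkb and 0.80 ± 0.48 for Cdk4, and the lower ones of smallest p were -1.11 ± 0.60 for Ccnd1, -0.51 ± 0.32 for Anapc1 and -0.77 ± 0.49 for Cdc14a. The Ccnd1 estimate leans on 1 tRF-GluCTC embryo at 1200 CPM, while the group medians were 62.7 CPM with tRF-GlyGCC and 102 CPM with tRF-GluCTC. The tRF-GlyGCC values pool batches G and H, and all tRF-GluCTC embryos are of batch H. Within batch H the mean log2 difference of Ccnd1 was -0.31. It was 1.43 for Cenpi, 1.65 for Aurkb, 1.01 for Cdk4, -0.48 for Anapc1 and -0.86 for Cdc14a. The errors of the 6 estimates from the fit, between 0.32 and 0.61 on the log2 scale, were large beside the estimates. The result therefore does not show that the fragments act alike. DESeq2 called 0 members and 1 gene, and with no batch term 3 members had an unadjusted p under 0.05, beside 2.9% of all genes.

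At the 4-cell stage the antisense oligonucleotide was set against GFP to ask what follows when tRF-GlyGCC is targeted. Of 89 members, 73 reached a mean of 5 FPKM and were tested. No member passed by limma (0 of 73), where 0.0276% of features did (2 of 7237). At an unadjusted p under 0.05 there were 6 of 73 members (8.22%), beside 10.9% of all features. Of these, 5 had a higher estimate, beside 7.25% of features, and 1 a lower one, beside 3.62%. The members' median log2 fold change was 0.08, beside 0.01 over all features, and 51 of 73 (69.9%) had a higher estimate, beside 52.7% of all features. The 6 members became 10 of 75 without antisense embryos 9 and 19 and GFP embryo 6, a setting chosen after seeing the data, beside 15.3% of features, and 12 of 74 without batch P, beside 13.6%. The 2 features became 0 without batch Q, 1 without batch L, 4 without batch M or without batch P, and 10 without antisense embryos 9 and 19.

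Of these 6 members, 3 were origin recognition subunits. Orc5 ranged over 10.2, 31.2 and 54.1 FPKM with antisense and 3.64, 24.1 and 44.2 FPKM with GFP (log2 fold change 0.49 ± 0.19, p = 0.0144, adjusted p = 0.296 by limma). Its batch differences lay between -0.04 and 2.48, so 1 batch stood apart, and 6 of 7 were above 0. Orc2 had 0.25 ± 0.11 and Orc4 0.28 ± 0.13, with 24 and 16 of 27 antisense embryos above the GFP median and adjusted p = 0.397 and 0.417 by limma. Cdc14b ranged over 9.46, 38.5 and 73.7 FPKM with antisense and 7.66, 26.8 and 44.96 FPKM with GFP (0.42 ± 0.15, p = 0.00538, adjusted p = 0.21 by limma). Its GFP median was exceeded in 23 of 27 antisense embryos, and the difference was above 0 in 6 of 7 batches. Cenpt, which links centromeric chromatin to the outer kinetochore, ranged over 23.9, 42.2 and 80.6 FPKM with antisense and 7.68, 37.4 and 61.4 FPKM with GFP (0.44 ± 0.15, p = 0.00607, adjusted p = 0.223 by limma), above 0 in 7 of 7 batches. The ranges of both genes overlapped widely, and Orc2 and Cenpt overlap exons of Nif3l1 and Tsnaxip1 on the opposite strand.

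Ccnd3 had the lower estimate of smallest p. It ranged over 0, 72.05 and 138 FPKM with antisense and 20.2, 95.1 and 426 FPKM with GFP (-0.72 ± 0.36, p = 0.0478, adjusted p = 0.45 by limma). The antisense embryos were lower in 6 of 7 batches, but batch Q alone differed by -2.46. Antisense embryo 9 of that batch had 4.90 FPKM and antisense embryo 19 of batch N had 0. GFP embryo 6 had 26.3 FPKM, and the lowest of the other 52 embryos 7.09. These 3 embryos are described below for their few detected features. Over the settings run the estimate lay between -0.84 and -0.33. Aurkb had -0.27 ± 0.16, with medians of 72.4 FPKM with antisense and 84.5 FPKM with GFP. Anapc10 had -0.25 ± 0.17, with medians of 58.97 FPKM with antisense and 85.7 FPKM with GFP, a median that 6 of 27 antisense embryos exceeded. In the authors' deposited table of this comparison, 0 of 89 members are marked significant, and the lowest q-value, 0.162, is that of Mcm9. Some of the 89, among them Ccnd1, Ccne2, Cdc14a, Cenpf and Plk2, are marked there as not tested, so the count is not one of 89 tests. The share of all features marked significant there is not given here. Mcm9 had a mean under the 5 FPKM needed for the test here and ranged over 0.692, 4.28 and 28.2 FPKM with antisense and 0, 2.98 and 5.92 FPKM with GFP.

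**Figure D4:**
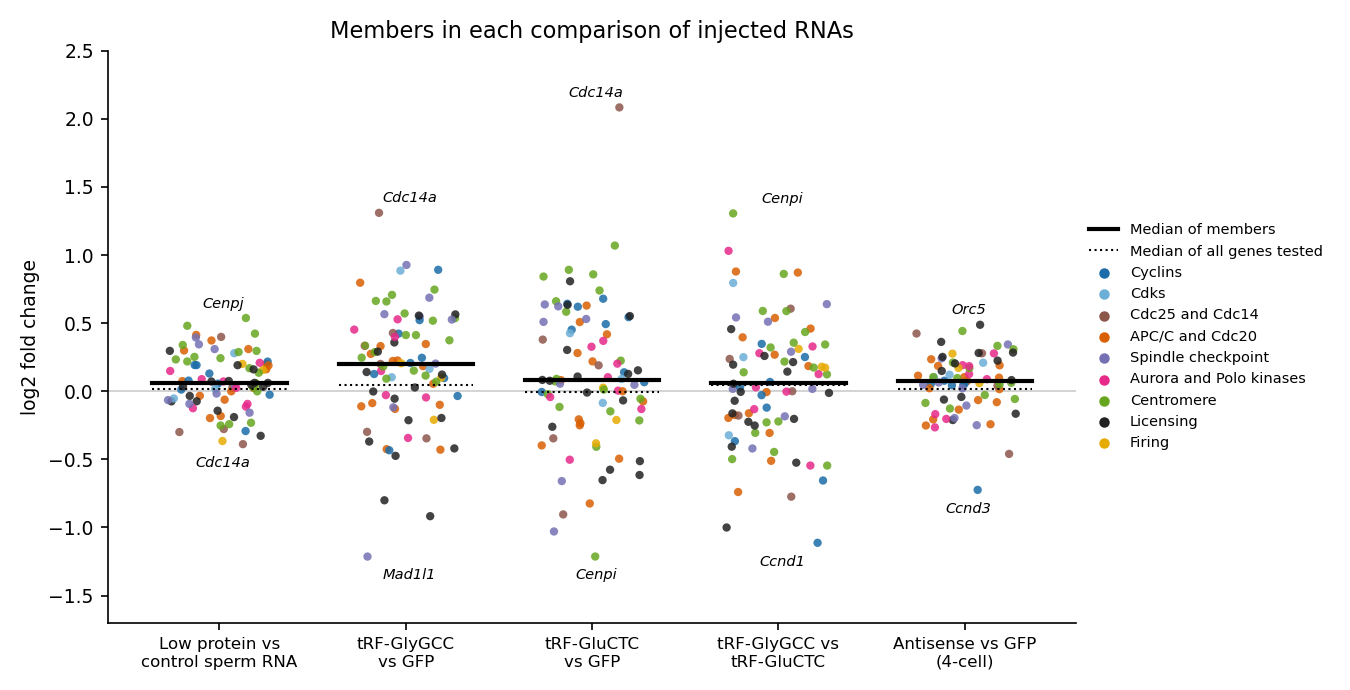
Log2 fold change of each member in the 5 comparisons of injected RNAs, coloured by role, with the median of members (solid) and of all genes tested (dotted). The member medians lie between 0.06 and 0.20, and the labelled extremes include Cdc14a at 2.08 with tRF-GluCTC and Mad1l1 at -1.21 with tRF-GlyGCC; no point passed the adjusted test.

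The other genes of the pathway were taken from 6 lists: regulators of licensing and firing, the replication fork, regulators of Cdk activity, outer kinetochore and spindle genes, cohesin and condensin, and the E2F, Rb and DREAM regulators of transcription. No gene of any list passed the adjusted test in any of the 5 comparisons. With low protein sperm RNA, 2 of 26 kinetochore and spindle genes had an unadjusted p under 0.05 with a higher estimate, beside 2.47% of all genes, and 0 with a lower one, beside 1.53%. With tRF-GlyGCC, 2 of 22 fork genes did in the higher direction, beside 1.99% of all genes, and 19 Cdk regulators had a median of 0.20, as the members had. Other lists lay lower with tRF-GlyGCC. Their medians were 0.16 for the fork, 0.14 for kinetochore and spindle genes and 0.005 for regulators of licensing and firing. Cohesin and condensin had -0.03, and the E2F, Rb and DREAM regulators -0.08. With antisense, 7 of 25 kinetochore and spindle genes had an unadjusted p under 0.05, all with a higher estimate as for 7.25% of features, and the list's median was 0.13, beside 0.01 over all features.

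Batches, taken from the end code of each title, were compared within the same fits. Of 84 members in the sperm RNA table, 6 differed between 6 batches (edgeR, adjusted p under 0.05), beside 9.21% of all genes. Ccnb2 averaged 198 ± 167 CPM in batch D and 66.1 ± 23.7 CPM in batch C (adjusted p = 0.00702 by edgeR), and Mad2l1 493 ± 306 CPM in batch D and 182 ± 70.8 CPM in batch A (adjusted p = 0.01 by edgeR). Cenph and Cenpn also peaked in batch D, which has only 3 embryos. Mcm2 averaged 353 ± 138 CPM in batch B and 164 ± 62.2 CPM in batch A (adjusted p = 0.00915 by edgeR), and Ccnb1ip1 was highest in batch B at 76.5 ± 36.2 CPM. Of 84 members in the tRF table, 2 differed, beside 1.56% of all genes: Cdc26, a small subunit of the anaphase-promoting complex, averaged 20.5 ± 13.3 CPM in batch H and 7.50 ± 4.75 CPM in batch G (adjusted p = 0.0306 by edgeR), and Anapc15, a further subunit, averaged 237 ± 57.1 CPM in batch H and 148 ± 54.01 CPM in batch G (adjusted p = 0.0341 by edgeR). At the 4-cell stage 0 of 73 members passed by limma, beside 4.38% of features, with 21 at an unadjusted p under 0.05 (28.8%, beside 24% of features), and the smallest adjusted p was 0.0623 for Cdc25c. Without the 3 embryos described next, 7 of 75 members (9.33%) passed, below the 10.8% of all features: Aurka, Bub3, Ccne1, Cdc23, Cdc26, Cdc45 and Mcm2.

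Spread between embryos of the same group and batch was set beside that of genes of like level. Anapc7, a scaffold subunit of the anaphase-promoting complex, was the most variable member in both 2-cell tables, at 1.58 times the trend in the sperm RNA table and 1.73 times in the tRF table. Its level ranged over 4.04, 311.5 and 698 CPM with low protein sperm RNA and 5.28, 343 and 724 CPM with control sperm RNA. It ranged over 0, 131 and 584 CPM with tRF-GlyGCC, 14.6, 98.6 and 308 CPM with tRF-GluCTC and 1.15, 228 and 592 CPM with GFP, so that embryos near 0 and embryos above 500 CPM occurred in 4 of the 5 groups. Plk3, Cenpi, Ccnb3 and Plk2 followed in the sperm RNA table (ratios between 1.45 and 1.53), and Ccnd1, Anapc4, Cdc45 and Aurkb in the tRF table (1.30 to 1.46). The steadiest members were Cenpp (0.53), Anapc11 (0.54), Anapc15 (0.59), Cenpw (0.61) and Cdc14b (0.62) with sperm RNA. In the tRF table they were Orc2 (0.53), Cenpp (0.59), Anapc15 (0.60), Cdc14b (0.61) and Anapc16 (0.61), so Cenpp, Anapc15 and Cdc14b were low in both tables.

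At the 4-cell stage Ccnd3 varied most, at 2.37 times the trend, followed by Mcm7 (1.92), Mcm2 (1.85), Mcm3 (1.69) and Cdc25b (1.66). The high ratios of Mcm7, Mcm2 and Mcm3 rest on 3 embryos. Mcm7 was at 0 and 18.7 FPKM in antisense embryos 19 and 9 and at 6.27 FPKM in GFP embryo 6, against 40.3, 83.2 and 125 FPKM (lowest, median, highest) in the other 52 embryos. Mcm3 was at 1.29, 17.4 and 5.34 FPKM in the same 3 embryos and at 30.6, 66.8 and 185 FPKM in the others, again without overlap. Mcm10 was at 5.49, 7.60 and 20.5 FPKM in them and at 20.9, 52.9 and 120 FPKM in the others. Not every MCM subunit was low in all 3. Mcm4 was at 35.2 and 29.6 FPKM and Mcm6 at 50.2 and 86.2 FPKM in antisense embryos 19 and 9. The lowest of the other 52 had 15.8 FPKM of Mcm4 and 46.9 FPKM of Mcm6. GFP embryo 6 lay below these, at 2.64 and 9.30 FPKM. Mcm2 was at 0, 3.95 and 26.4 FPKM in the 3 embryos (lowest of the others 19.2) and Mcm5 at 20.4, 10.7 and 2.93 FPKM (8.59). Ccnb1, by contrast, was at 1656 and 1466 FPKM in the 2 antisense embryos, above all 52 others (at most 1313 FPKM), and at 345 FPKM in GFP embryo 6, below all 52. These embryos had 6644, 8687 and 9155 features at 1 FPKM or more, beside group medians of 10100 with antisense and 10082.5 with GFP. The part of that lower complexity in the MCM values was not tested. They were chosen after their values were seen, and without them the ratios were 0.81 for Mcm7, 0.99 for Mcm2 and 1.03 for Mcm3, whereas Ccnd3 stayed at 2.20 and Cdc25b at 1.62. Anapc11 (0.51) and Orc2 (0.59) were the steadiest.

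Some pairs of members varied together from embryo to embryo, while most did so weakly. Levels on the log2(CPM + 1) scale were centred within group and batch, for the 74 members at a mean of 20 CPM or more in both 2-cell tables, and the 5 most positive and 5 most negative of 2701 pairs were taken from 87 embryos of the sperm RNA table (the single control embryo of batch D has no other to be centred with), after their values were seen. They were then tested in the 43 embryos of the tRF table by permutation within group and batch. Over all 2701 pairs the median r was 0.07 in the sperm RNA table and 0.09 in the tRF table, and the correlations of the 2 tables were themselves correlated at 0.75, as a description across pairs that share genes.

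Aurka and Cdk1 had the strongest relation, r = 0.819 over 87 embryos of the sperm RNA table. In the tRF table Pearson's r was 0.642 and Spearman's rho 0.705 (n = 43), each with a permutation p of 1e-05, the smallest that 100000 resamples can give (adjusted over 10 pairs 1.43e-05 and 2e-05). It was 0.655 without the 2 embryos farthest from the median, 0.773 in batch G and 0.707 in batch H. Aurka with Cdc20 (r = 0.704, rho = 0.69) and Cdc45 with Cdk1 (r = 0.707, rho = 0.691) gave the same p, and were 0.69 and 0.809 in batch G and 0.717 and 0.831 in batch H. Cdk1 with Mcm6 was weaker at r = 0.508 and rho = 0.519, and 0.439 without the 2 farthest embryos. For Ccnb1 with Cdc20, whose product targets cyclin B for destruction, r was 0.62 and rho 0.557 over both batches (permutation p = 0.00018 and 0.00058), but -0.158 in batch G and 0.809 in batch H.

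Plk4 and Cenpn ran against Cdk1 and Cdc45. Plk4 with Cdk1 had r = -0.669 in the sperm RNA table and r = -0.689, rho = -0.55 in the tRF table (permutation p = 1e-05 and 0.0002, adjusted 1.43e-05 and 0.000286), and -0.706 in each batch. Without the 2 farthest embryos it was -0.559. Cenpn, which reads the Cenpa nucleosome, had r = -0.657 and rho = -0.703 with Cdc45 and r = -0.70 and rho = -0.655 with Cdk1. Plk4 with Cdc45 had r = -0.737 and rho = -0.644, at -0.408 in batch G and -0.856 in batch H. Not every mitotic member ran against Plk4: as a description, its r with Ttk was 0.37 and 0.59 and with Ccnb2 0.27 and 0.58 in the sperm RNA and tRF tables. Anapc5 with Cenpe, the last of the 10, had r = -0.338 (permutation p = 0.0333) and rho = -0.294 (permutation p = 0.0627).

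The embryos lowest and highest in Anapc7 differed in the other genes as well, though not all to the same extent. The tRF-GlyGCC embryo 23 had 0 CPM of Anapc7, 1.25 of Aurka, 28.7 of Cdc20 and 143 of Cdk1, with 1581 CPM of Plk4 and 690 of Cenpn. The tRF-GlyGCC embryo 20 had 584 CPM of Anapc7, 620 of Aurka, 614 of Cdc20 and 819 of Cdk1, with 217 CPM of Plk4 and 130 of Cenpn. GFP embryo 8 resembled the first, with 1.15 CPM of Anapc7, 51.7 of Cdc20 and 691 of Plk4, and GFP embryo 1 resembled the second, with 592, 811 and 193 CPM of the same genes. In the sperm RNA table, low protein embryo 20 had 7.91 CPM of Anapc7, 75.1 of Aurka and 721 of Plk4, and low protein embryo 42 had 698, 778 and 183 CPM. Other embryos low in Anapc7 were less extreme: control embryo 15 had 9.34 CPM of Anapc7 with 297 of Plk4 and 194 of Cenpn, beside table means of 268 and 259 CPM, and tRF-GlyGCC embryo 25 had 0.608 CPM of Anapc7 with 526 of Cdk1, beside a table mean of 563 CPM. In the tRF table the 4 embryos lowest in Anapc7 were all of batch H and the 4 highest all of batch G.

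Anapc7 itself exceeded r = 0.5 with 20 members in the sperm RNA table and 30 in the tRF table, 16 of them shared, as a description. These included Cdc20 (0.71 and 0.86), Cdc45 (0.78 and 0.77), Aurka (0.78 and 0.69) and Cenpa (0.67 and 0.69). It was under -0.3 in both tables with 7 members, among them Plk4 (-0.59 and -0.78), Cenpn (-0.62 and -0.70), Cdc25b (-0.57 and -0.52) and Cdc14a (-0.44 and -0.52). The share of all genes beyond these limits was not computed, so whether the counts are particular to the members is unknown. Other measures moved with Anapc7 and Plk4. Anapc7 had r = 0.15 and 0.28 with total counts and 0.15 and 0.55 with the number of genes detected, and -0.39 and -0.50 with the summed oocyte markers. Plk4 had 0.56 and 0.58 with the oocyte markers. The part of depth, detection and oocyte transcripts in these relations was not tested.

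**Figure D5:**
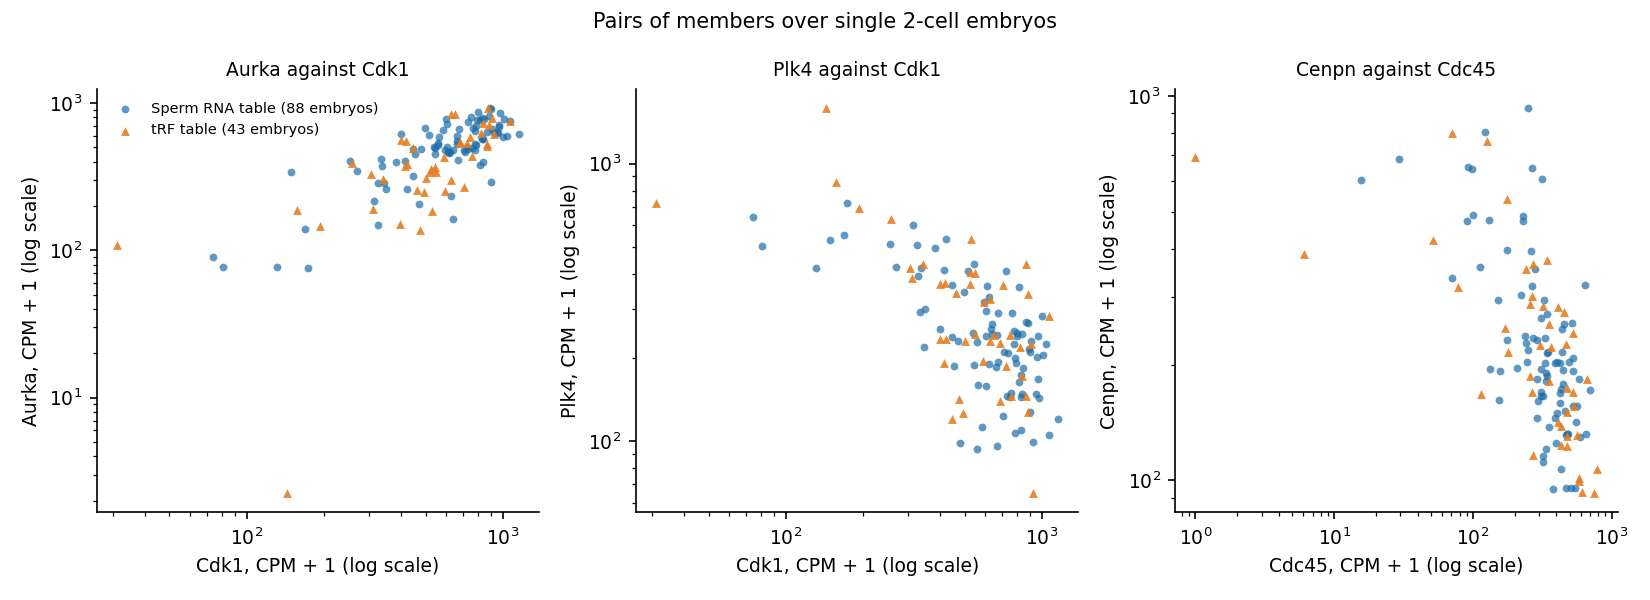
Levels of member pairs (CPM + 1, log axes) in single 2-cell embryos of the sperm RNA table (88, circles) and the tRF table (43, triangles). Aurka was higher where Cdk1 was higher, while Plk4 was lower where Cdk1 was higher and Cenpn where Cdc45 was, and embryo 23 of tRF-GlyGCC lies at the low end of Aurka and the high end of Plk4.

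Promoters of the members were read for the words of cell cycle control. RefSeq promoters of GRCm38.p6 (250 bases before to 50 after the start) were found for 81 members and searched on both strands for the E2F words TTTCGCGC and TTTGGCGC, the CCAAT box CCAAT and the CHR element TTTGAA. An E2F word occurred in 9 of 81 members (11.1%), beside 0.929% of 27025 promoters, and in 6 of 15 licensing genes. The members were Cdk1, Cdc25a, Cenpl, Mcm3, Mcm5, Mcm6, Mcm7, Mcm8 and Orc1. CCAAT occurred in 60.5% of members, beside 41.1% of all promoters, and CHR in 23.5%, beside 20.2%. Such a match is a description of letters and not of a bound site. The 160 bases before the start are shown for Cdk1 and Mcm6, which moved together, and for Cdc25a, Mcm5 and Orc1, with words in capitals on the printed strand or as their reverse complement, 5′ to 3′ along the gene. Cdk1 lies on the minus strand (chr10:69352913-69353072), Mcm6 on the minus strand (chr1:128359706-128359865), Cdc25a on the plus strand (chr9:109875419-109875578), Mcm5 on the plus strand (chr8:75109349-75109508) and Orc1 on the plus strand (chr4:108579294-108579453).
Cdk1: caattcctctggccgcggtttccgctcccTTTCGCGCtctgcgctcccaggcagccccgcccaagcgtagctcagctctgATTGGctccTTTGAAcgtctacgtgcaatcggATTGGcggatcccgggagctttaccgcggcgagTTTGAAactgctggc
Mcm6: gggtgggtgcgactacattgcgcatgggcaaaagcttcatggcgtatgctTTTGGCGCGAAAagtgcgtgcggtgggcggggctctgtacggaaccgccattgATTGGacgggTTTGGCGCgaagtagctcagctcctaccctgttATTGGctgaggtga
Cdc25a: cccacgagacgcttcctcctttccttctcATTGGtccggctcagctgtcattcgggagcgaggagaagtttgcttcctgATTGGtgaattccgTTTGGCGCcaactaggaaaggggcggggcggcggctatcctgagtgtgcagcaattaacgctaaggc
Mcm5: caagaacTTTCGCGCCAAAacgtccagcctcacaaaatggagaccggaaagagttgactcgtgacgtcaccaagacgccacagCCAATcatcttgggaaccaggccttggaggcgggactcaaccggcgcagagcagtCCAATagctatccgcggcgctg
Orc1: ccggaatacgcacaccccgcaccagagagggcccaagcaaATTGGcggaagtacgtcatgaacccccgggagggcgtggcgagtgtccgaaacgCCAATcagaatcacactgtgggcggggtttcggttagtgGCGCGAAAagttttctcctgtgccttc
In Mcm5 and Mcm6 an E2F word on each strand overlaps the other, within TTTCGCGCCAAA and TTTGGCGCGAAA. The 5 genes shown all belong to the 9 members with an E2F word. That they share it follows from this choice and says nothing about Cdk1 and Mcm6 as a pair. Each stretch also carries more than 1 CCAAT box. Cdk1 alone of these 5 has the CHR word within the stretch shown. Of the other members in the pairs with Cdk1, Aurka and Cdc45, which moved with it, and Plk4 and Cenpn, which ran against it, all lack an E2F word in their promoter. Any part of these words in the relations between members was not tested.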

How the data were processed

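Per the labels' protocols, each embryo was sequenced alone with a single-cell method and a Nextera kit. The submitters' processing notes name Bowtie and mm10, while the counter and its annotation are not stated. The authors deposited the 2-cell tables with expected counts per gene, with 0 shown as 0.1 and genes of low count already left out. The 4-cell table was deposited as FPKM, with 0 shown as 0.001, so depth there is unknown. A p-value and a q-value per gene of the 4-cell comparison come from a table made by the authors, per the file headers, and were only copied. Of 187 labelled embryos, 186 had a column and were used.

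The rounded expected counts went into edgeR 4.0.16 (R 4.3.3; TMM, filterByExpr, quasi-likelihood F test), batch being a covariate. One fit held all 3 tRF table groups. For FPKM, limma 3.58.1 (trend, robust) was run on log2(FPKM + 1), keeping features that averaged 5 FPKM or more, a scale that understates changes of low genes. Tests were two-sided over all genes, p was adjusted by Benjamini-Hochberg (threshold 0.05), and each fit was first tested on simulated data. CPM were computed from an embryo's total in its table. Deviations of embryos with the same title number had a median correlation of 0.05, 0.14 and -0.03 in the sperm RNA, tRF and 4-cell tables, against -0.01, -0.06 and -0.01 for other numbers. Single pairs of the same number fell to -0.58, -0.64 and -0.30, but such lowest values cannot decide whether a number marks a shared effect. The numbers were not used as pairing in the main fits. The members and lists were chosen with earlier results of these data known. For each comparison the 3 members of smallest p in each direction are named, for levels the extremes of each role and the 5 highest, and for spread and batches the 5 at the ends. Relations between members over embryos were added after seeing the data. Alternatives were DESeq2 1.42.0, other filters and pseudocounts, no batch term, a replicate block, and leaving out batches or embryos.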

Additional observations from a re-analysis of the deposited data

Results flagged for a closer look

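In the group of 6 tRF-GluCTC embryos, the 10 members named for that group were examined for a single embryo far from the rest, by Dixon's ratio of gap to range, set against its 95% limit. Ccnd1 stood at 1200 CPM in tRF-GluCTC embryo 5, while the next embryo had 194 CPM and the lowest 19.9 CPM, a ratio of 0.853. Orc6 stood at 514 CPM in tRF-GluCTC embryo 4, while the next had 299 CPM and the lowest 190 CPM, a ratio of 0.664. Chance flags about 1 in 20 such groups.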

How the results depend on the processing

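No member passed the adjusted test in any comparison of injected RNAs under any setting run, and none of the 30 named fold changes turned its direction over 288 values. The count of all genes called was less stable. With low protein sperm RNA it was 8, and became 16 with no batch term, 18 with DESeq2, 14 without batch A, 15 without batch C, and 0 without batch E, without batch F or without control embryos 22 and 26. Since the title numbers were not taken as pairing embryos, a replicate block of batch and number is given only here, and it left 0 genes. With this block 12 of 84 members (14.3%) had an unadjusted p under 0.05 for tRF-GlyGCC against GFP by edgeR, beside 2.64% of all genes. In the main fit there were 8. The number of members did not change with the block in the other comparisons of injected RNAs. DESeq2 called 1 gene for tRF-GluCTC against GFP and 1 for tRF-GlyGCC against tRF-GluCTC, where edgeR called 0. With antisense the count was 2, and became 10 without antisense embryos 9 and 19, 7 without these and GFP embryo 6, 1 without batch L, 4 without batch M, 4 without batch P and 0 without batch Q.

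The batch test of the 4-cell table called 317 features and 0 members. It called 797 features and 4 members (Bub3, Cdc26, Cdc7, Mcm10) without antisense embryos 9 and 19, and 782 features and 7 members without these and GFP embryo 6, a setting chosen after seeing the data. Bub1 minus Bub1b was 0.37 with a pseudocount of 0.1 (adjusted permutation p = 0.0507). In batch G alone, Ccnb1 with Cdc20 had r = -0.158 and Cdc45 with Plk4 r = -0.408 (adjusted permutation p = 0.249). Anapc5 with Cenpe had r = -0.382 in batch H alone and r = -0.254 in batch G alone. With a replicate block of batch and number, added after seeing the data and run over the 38 embryos that share both with another of their group, r of the 10 pairs kept its sign and its side of the threshold, and was weakest for Anapc5 with Cenpe (r = -0.416, adjusted permutation p = 0.0474). The cause of these differences was not tested. At 6 tRF-GluCTC and 11 GFP embryos, errors of single members reached 0.99 on the log2 scale (Mcm3ap), which limits what these comparisons could detect.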
